A study of Homo sapiens with 12 samples.

Results

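The IGF2BP family has 3 members, IGF2BP1, IGF2BP2 and IGF2BP3, and its genes were described here through 3 histone marks in 4 related colorectal cancer lines. The genes were chosen by name, with earlier results of these data known, and every deposited region overlapping a gene or the 2 kb on either side of it was taken. This gave 11 of 36400 H3K4me3 regions, 14 of 50000 H3K27me3 intervals and 151 of 157878 H3K79me3 regions. On hg19, IGF2BP1 covers chr17:47074774-47133012 on the plus strand, IGF2BP2 covers chr3:185361527-185542844 on the minus strand and IGF2BP3 covers chr7:23349828-23510086 on the minus strand.

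The data are ChIP-seq read counts from 12 libraries, with 1 library per line and mark. DLD1 is an established human colorectal cancer line, labelled epithelial and parental. Its derivatives are SA, labelled mesenchymal and grown out of soft agar colonies, SPH, labelled mesenchymal and taken from colonospheres, and METS, labelled epithelial and recovered from a lung metastasis of a xenograft. Serum-supplemented McCoy's 5A medium was used for all 4 lines, and no other treatment or genotype is given. The titles of the derivative libraries also carry the word parental. Library totals over the regions held here ranged from 6722508 to 7753937 counts for H3K4me3, from 15605814 to 20410151 for H3K27me3 and from 6165169 to 7521451 for H3K79me3. With 1 library per line there is no replicate error: levels are counts scaled by the library total to the usual CPM, intervals are exact 95% Clopper-Pearson intervals of a ratio, and these cover counting error only. In bulk chromatin, fewer cells carrying a mark and less of the mark per cell cannot be told apart.

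The IGF2BP proteins bind mRNA through RRM and KH domains, recognise m6A-modified transcripts and protect targets such as MYC from decay. IGF2BP1 and IGF2BP3 are called oncofetal because they are made mostly in the embryo, are low in most adult tissues and return in many carcinomas, colorectal ones among them, while IGF2BP2 is made more widely in the adult. H3K4me3 sits at active promoters, H3K27me3 is deposited by Polycomb repressive complex 2, and H3K79me3 is written by DOT1L at the 5′ part of transcribed genes.

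The promoters of IGF2BP2 and IGF2BP3 are shown because the H3K4me3 at both genes lay around their starts and because their base content differs. RefSeq's GRCh38.p14 promoter table matched 2 of the 3 genes, with 3 entries, and held none for IGF2BP1. Each line is the 250 bases before the start, 5′ to 3′ on the minus strand, and capitals mark matches to CACGTG, the core E-box read by MYC and related factors, or to the GC box GGGCGG read by SP factors, on either strand. The IGF2BP2 stretch lies at chr3:185825043-185825292 and that of IGF2BP3 at chr7:23470492-23470741. These positions are on another build than the ChIP-seq regions and were not joined to them.
IGF2BP2: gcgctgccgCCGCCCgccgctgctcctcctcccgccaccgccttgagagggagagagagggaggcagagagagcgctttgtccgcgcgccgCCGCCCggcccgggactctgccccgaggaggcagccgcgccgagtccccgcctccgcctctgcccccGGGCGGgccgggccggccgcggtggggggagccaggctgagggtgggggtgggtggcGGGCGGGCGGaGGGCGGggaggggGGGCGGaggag
IGF2BP3: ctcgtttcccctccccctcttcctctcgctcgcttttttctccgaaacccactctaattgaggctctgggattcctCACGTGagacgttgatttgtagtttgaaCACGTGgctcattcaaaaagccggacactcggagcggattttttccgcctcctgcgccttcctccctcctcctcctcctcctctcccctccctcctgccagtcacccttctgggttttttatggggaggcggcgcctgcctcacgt
The IGF2BP2 stretch has 81.6% G and C, above 98.0% of the 35116 promoter entries, with 32 CpG and 7 GC box matches, of which 2 overlap each other, and 0 E-boxes. The IGF2BP3 stretch has 56.8% G and C, against a median of 58.0% over all entries, with 15 CpG, 0 GC boxes and 2 E-boxes whose first bases lie 174 and 146 bases before the start. An E-box was found in 6.34% of all entries and a GC box in 42.6%. A second IGF2BP2 entry, at chr3:185821143-185821392, has 32.8% G and C, 2 CpG and 1 match to TATAAA, a motif found in 10.7% of entries. A match is a description of these letters and not a measured binding site.

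H3K4me3 was strongest at the IGF2BP2 start, weaker at the IGF2BP3 start, and no region was listed at the IGF2BP1 start. Within 3 kb of the IGF2BP2 start, the H3K4me3 level per length was 134 CPM per kb for DLD1, 127 for SA, 118 for SPH and 136 for METS. Within 3 kb of the IGF2BP3 start it was 33.6, 27.4, 41.5 and 28.9 in the same order. Over all regions of IGF2BP2, weak inner ones included, the level was 82.1 CPM per kb for DLD1, 77.5 for SA, 72.9 for SPH and 83.8 for METS. Over all regions of IGF2BP3 it was 27.1 for DLD1, 22.2 for SA, 33.7 for SPH and 24.9 for METS. The single IGF2BP1 region, which lies inside the gene and not at its start, had 19.2, 15.7, 18.7 and 11.2 CPM per kb in the same order of lines. Over all listed regions, the level per length was therefore highest at IGF2BP2 and lowest at IGF2BP1 in each of the 4 lines.

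**Figure D1:**
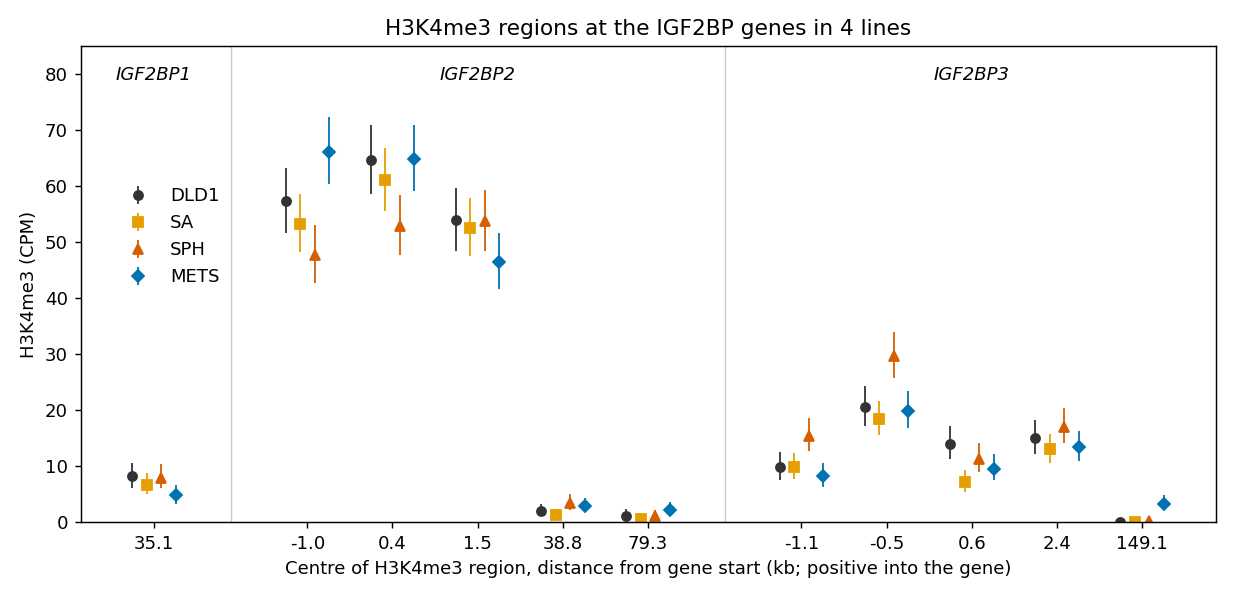
H3K4me3 level (CPM) of the 11 regions in the 4 lines, placed by distance of the region's centre from the gene start. Points are single libraries and bars are exact 95% Poisson intervals for counting error. The 3 regions around the IGF2BP2 start lie between 46.4 and 66.1 CPM in all lines, and the region at 149 kb of IGF2BP3 has counts above 2 only in METS.

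IGF2BP1, which shields MYC mRNA from endonuclease attack, had 1 H3K4me3 region, chr17:47109645-47110070, 35.1 kb inside the gene. It held 55 counts in DLD1 (8.18 CPM), 52 in SA (6.71 CPM), 57 in SPH (7.97 CPM) and 35 in METS (4.79 CPM). METS was the lowest line, 1.71-fold below DLD1 (interval 1.10 to 2.69), and the mean level of the region stood at percentile 35.4 of all H3K4me3 regions. In the order DLD1, SPH, SA, METS, no neighbouring pair differed beyond counting error.

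IGF2BP2 had 3 strong H3K4me3 regions around its start and 2 weak ones inside the gene. The region nearest the start, chr3:185542239-185542683, had 64.6 CPM for DLD1, 61.0 for SA, 52.8 for SPH and 64.8 for METS. The region before the start, chr3:185543665-185544055, had 57.3, 53.3, 47.7 and 66.1 CPM in the same order, and the region 1.498 kb inside, chr3:185541111-185541582, had 53.8, 52.5, 53.7 and 46.4. METS was thus the highest line before the start, level with DLD1 nearest the start and the lowest line in the inner region. Summed over the 3 regions, the level was 176 CPM for DLD1, 167 for SA, 154 for SPH and 177 for METS. SPH was 1.14-fold below DLD1 (1.05 to 1.24) and METS was at 1.01-fold of DLD1 (0.932 to 1.09). In the order METS, DLD1, SA, SPH, no neighbouring pair differed beyond counting error. The weak regions at 38.8 and 79.3 kb held 5 to 24 counts in each line.

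IGF2BP3, the member most often described as a carcinoma marker, had 4 H3K4me3 regions within 3 kb of its start, and SPH was the highest line there. Before the start, chr7:23510282-23510858 held 20.5 CPM for DLD1, 18.4 for SA, 29.6 for SPH and 19.9 for METS, and SPH was 1.44-fold of DLD1 (1.16 to 1.802). Farther before the start, chr7:23511032-23511333 held 9.82, 9.80, 15.4 and 8.22 CPM, and SPH was 1.57-fold of DLD1 (1.14 to 2.16). These are the regions in which SPH stood apart from the other 3 lines. Inside the gene, chr7:23509225-23509671 held 13.98 CPM for DLD1, 7.22 for SA, 11.3 for SPH and 9.58 for METS, and SA was at 0.516-fold of DLD1 (0.364 to 0.727). The fourth, chr7:23507488-23507929, held 15.02, 13.0, 17.1 and 13.4 CPM. Summed over the 4 regions, the level was 59.4 CPM for DLD1, 48.5 for SA, 73.4 for SPH and 51.1 for METS. SPH was 1.24-fold above DLD1 (1.08 to 1.41), SA 1.22-fold below it (1.06 to 1.41) and METS 1.16-fold below it (1.01 to 1.34). In the order SPH, DLD1, METS, SA, the first and second pairs of neighbours differed beyond counting error and METS and SA did not. Over all regions inside the gene, with those before the start left out, SPH was at 0.988-fold of DLD1. This sum also takes in the weak region near the 3′ end described below. The higher level in SPH thus rests on the regions upstream of the gene.

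A region near the 3′ end of IGF2BP3 carried H3K4me3 in METS. This region, chr7:23360762-23361180, lies 149 kb from the gene start and had 0 counts for DLD1, 0 for SA, 2 for SPH and 24 for METS (3.29 CPM in METS, 0.280 in SPH). With 3 counts put in place of 0, METS was 7.36-fold above DLD1 and 8.49-fold above SA. The exact lower limits of the ratios, at the observed 0 counts, were 5.54 and 6.39. Against SPH the ratio was 11.8 (2.92 to 103). With so few counts in the other lines, this region probably entered the shared region list through METS. A high METS ratio would then follow from the listing, so these ratios are a description and not a test.

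The same region was the single H3K4me3 region of the family past a 2-fold difference, taken on CPM with 0.5 added. Its mean level stood at percentile 8.02 of all H3K4me3 regions, and with a filter at the median level 0 regions passed in either METS comparison. Over all H3K4me3 regions with a count, 5.11% passed that threshold in METS against DLD1 and 3.74% in METS against both SA and SPH, so 1 of 11 is read against those shares. In SA against DLD1 (2.69% of all regions), in SPH against DLD1 (7.07%) and in both mesenchymal lines against both epithelial ones (0.719%), 0 of 11 passed. Just outside the 2 kb limit, 2 regions upstream of IGF2BP3 between 23513497 and 23514711 summed to 53.8 CPM for DLD1, 36.4 for SA, 39.98 for SPH and 42.0 for METS, with DLD1 and not SPH the highest.

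Other regions with a like pattern were sought for the strongest H3K4me3 region of each gene, by the Euclidean distance between the 4 centred log2 levels among regions within 2-fold of its mean. For IGF2BP1 the closest of 8510 was chr6:28611152-28611551 (distance 0.0052), with 4.61, 3.74, 4.47 and 2.60 CPM in DLD1, SA, SPH and METS. The next were chr10:114709329-114709723 and chr11:11643897-11644208. For IGF2BP2 the closest of 13429 was chr1:161008257-161008732 (0.0065), with 72.6, 68.6, 59.3 and 72.4 CPM, followed by chr17:4736742-4737232 and chr2:238599997-238600419. For IGF2BP3 the closest of 10880 was chrX:80065681-80066142 (0.025), with 12.3, 10.8, 17.9 and 11.9 CPM, followed by chr19:44099703-44100117 and chr2:26569766-26570099. Each likeness rests on 4 values and is a description.

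H3K27me3 separated IGF2BP1 from its relatives in every line. The interval equal to the IGF2BP1 gene had 94.6 CPM in DLD1 (1477 counts), 98.8 in SA (1867), 91.4 in SPH (1865) and 90.7 in METS (1840). Per length this was 1625 CPM per Mb for DLD1, 1697 for SA, 1569 for SPH and 1557 for METS. Among 18092 intervals of 10 kb or more, these levels stood at percentiles 92.8, 92.6, 92.7 and 91.6. The IGF2BP1 level per length was 8.29 times that of IGF2BP2 and 7.02 times that of IGF2BP3 in DLD1, and at least 5.63 times that of either in each derivative.

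IGF2BP2 had 196 CPM per Mb for DLD1, 187 for SA, 210 for SPH and 183 for METS, at percentiles 29.7, 37.2, 38.8 and 27.8. IGF2BP3 had 232, 292, 240 and 277 CPM per Mb, at percentiles 40.1, 55.5, 45.5 and 49.7. The medians of the long intervals were 288, 248, 267 and 279 CPM per Mb, so IGF2BP2 lay below the median in all lines and IGF2BP3 lay above it in SA alone.

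**Figure D2:**
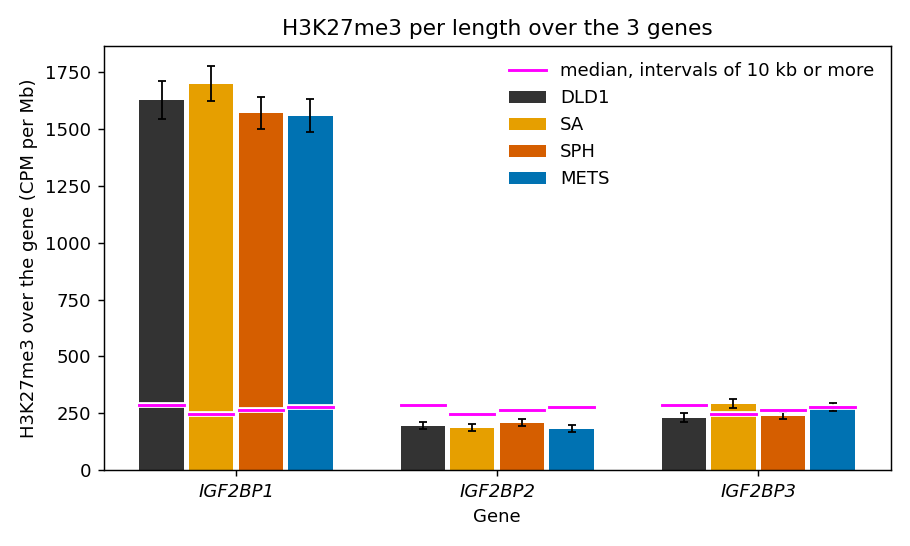
H3K27me3 per length (CPM per Mb) over the 3 genes in the 4 lines, 1 library per bar, with exact 95% Poisson intervals for counting error. Magenta lines give the median of 18092 intervals of 10 kb or more in the same library. IGF2BP1 stands between 1557 and 1697 CPM per Mb, and IGF2BP2 and IGF2BP3 between 183 and 292.

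Differences between the lines in H3K27me3 were small. At IGF2BP1, SA was at 1.04-fold of DLD1 (0.975 to 1.12), SPH at 0.965-fold (0.901 to 1.03) and METS at 0.958-fold (0.894 to 1.03), and scaling by TMM factors moved SA to 1.15-fold, outside its interval, and SPH to 1.05-fold. At IGF2BP2, SA was at 0.953-fold (0.849 to 1.07), SPH at 1.07-fold (0.957 to 1.19) and METS at 0.934-fold (0.834 to 1.05). At IGF2BP3, SA was 1.26-fold above DLD1 (1.14 to 1.40), METS 1.19-fold (1.07 to 1.33) and SPH 1.04-fold (0.930 to 1.16). With TMM factors these were 1.39-fold in SA, 1.23-fold in METS and 1.13-fold in SPH, each within its interval. SA was at 1.39-fold with DESeq2 size factors and 1.37-fold with quantile normalization. In the order of lines at IGF2BP3, METS and SPH differed as neighbours (1.15-fold, 1.05 to 1.27), and at IGF2BP1 and IGF2BP2 no neighbours differed beyond counting error with library totals.

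The windows also held other H3K27me3 intervals, which are gene bodies annotated separately from the IGF2BP genes. The interval chr17:47082093-47091087, inside the gene, held 537, 696, 683 and 725 counts in DLD1, SA, SPH and METS. The interval chr17:47072628-47074854, which lies mostly before the gene and ends just past its start, held 90, 116, 119 and 87 counts. The other 3 IGF2BP1 intervals held 0 to 10 counts per line. At IGF2BP2, chr3:185430316-185447575 held 53 to 81 counts and a further interval 0 or 1. At IGF2BP3, chr7:23338358-23351348, which lies mostly beyond the 3′ end of the gene, held 34 to 41 counts. The other 3 held 0 to 3. Of the 14 intervals, 0 passed 2-fold in any comparison. The shares of all intervals that did were 0.817% in SA, 2.15% in SPH and 1.27% in METS against DLD1, 0.401% in METS against both mesenchymal lines and 0.0537% in the mesenchymal against the epithelial lines.

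H3K79me3, the mark of transcribed gene bodies, was absent from the region list at IGF2BP1, ran over most of the length of IGF2BP2 and lay in the 5′ part of IGF2BP3. With 0 regions listed in the IGF2BP1 window, no level can be given there. At IGF2BP2, 129 regions ran over 151 kb, with 127 of them inside the gene, and covered 47.2 kb in all. Their mean levels ranged from 0.716 to 23.5 CPM, with a median of 3.38 CPM. At IGF2BP3, 22 regions spanned 54.7 kb in the 5′ part of the gene and covered 8.66 kb, with means from 0.656 to 9.59 CPM and a median of 1.85 CPM.

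**Figure D3:**
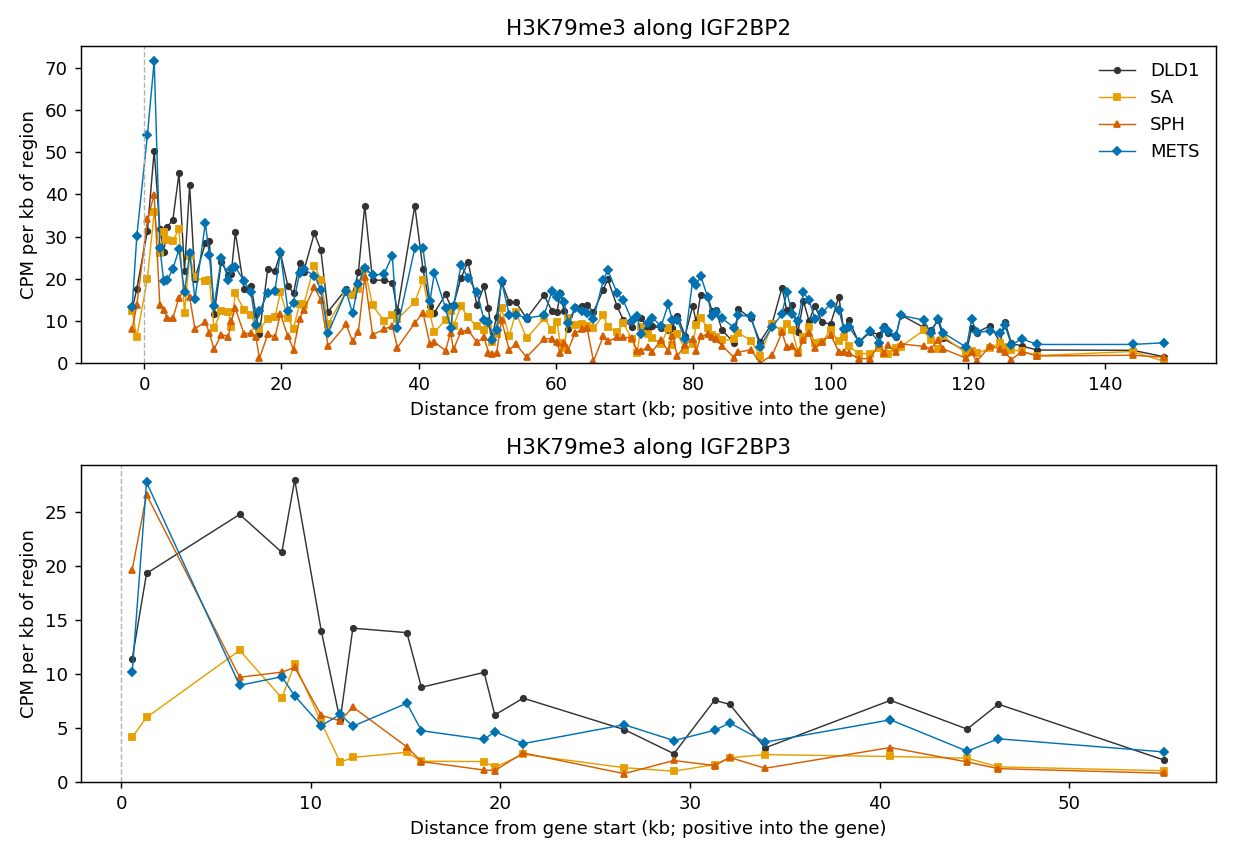
H3K79me3 level per length (CPM per kb of region) at each of 129 IGF2BP2 regions and 22 IGF2BP3 regions against distance from the gene start, 1 library per line, without error bars. At IGF2BP2 the SPH points are the lowest of the lines at 109 of 129 regions, and at IGF2BP3 the DLD1 points are the highest at 15 of 22.

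The summed H3K79me3 level of IGF2BP2 was 715 CPM for DLD1, 465 for SA, 302 for SPH and 706 for METS, from 5378, 3379, 1859 and 4540 counts. Both mesenchymal lines were low and both epithelial lines high. SA was 1.54-fold below DLD1 (1.47 to 1.61) and SPH 2.37-fold below it (2.25 to 2.50), while METS was at 0.987-fold of DLD1 (0.949 to 1.03). METS was 1.81-fold above the pooled mesenchymal lines (1.74 to 1.88), and the pooled mesenchymal lines were 1.82-fold below the pooled epithelial ones (1.76 to 1.89). In the order DLD1, METS, SA, SPH, METS and SA differed 1.52-fold (1.45 to 1.59) and SA and SPH 1.54-fold (1.46 to 1.63). DLD1 and METS did not differ beyond counting error with library totals, but METS was at 0.931-fold of DLD1 with TMM factors and 0.927-fold with DESeq2 size factors, both outside the interval of 0.949 to 1.03.

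Along IGF2BP2, SA was below DLD1 at 122 of 129 regions, SPH at 128 and METS at 64, where 51.5%, 58.3% and 43.6% of all H3K79me3 regions were. The METS share was thus near that of all regions. Both mesenchymal lines lay below both epithelial lines at 108 of 129 regions, against 20.3% of all H3K79me3 regions. The highest line was METS at 64 regions, DLD1 at 62 and SA at 3. The median log2 ratio to DLD1 was -0.58 in SA, -1.17 in SPH and 0.01 in METS, and over all H3K79me3 regions it was -0.02, -0.11 and 0.08. These regions share a gene and 4 libraries, so they are not independent of each other.

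At IGF2BP3 the summed level was highest in the parental line and lowest in SA. The summed H3K79me3 level was 90.7 CPM for DLD1, 30.1 for SA, 46.2 for SPH and 57.5 for METS, from 682, 219, 285 and 370 counts. SA was 3.01-fold below DLD1 (2.58 to 3.52), SPH 1.96-fold (1.71 to 2.26) and METS 1.58-fold (1.39 to 1.79). Each pair of neighbours in the order DLD1, METS, SPH, SA differed beyond counting error in this sum. By region, SA was the lowest line at 10 of 22, SPH at 9 and METS at 3, and SPH was above SA at 11 and below it at 11. Beyond 2 kb from the start, SPH and SA did not differ beyond counting error (1.12-fold, 0.908 to 1.38). Within 2 kb of the start, DLD1 was below SPH and METS, as given below. METS was 1.53-fold above the pooled mesenchymal lines (1.34 to 1.76), and the mesenchymal lines were 2.01-fold below the epithelial ones (1.81 to 2.24).

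By region, SA was below DLD1 at 22 of 22 IGF2BP3 regions (51.5% of all regions), SPH at 20 (58.3%) and METS at 16 (43.6%). DLD1 was above all 3 derivatives at 15 of the 22, against 20.3% of all H3K79me3 regions, and both mesenchymal lines were below both epithelial ones at 15 of 22, against 20.3% as well. Median log2 ratios to DLD1 were -1.28 in SA, -1.14 in SPH and -0.57 in METS. IGF2BP2 and IGF2BP3 thus shared lower H3K79me3 in SA and SPH, while METS was near DLD1 at IGF2BP2 and below it at IGF2BP3. These ratios share the DLD1 library. The difference between the genes in METS was not tested.

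**Figure D4:**
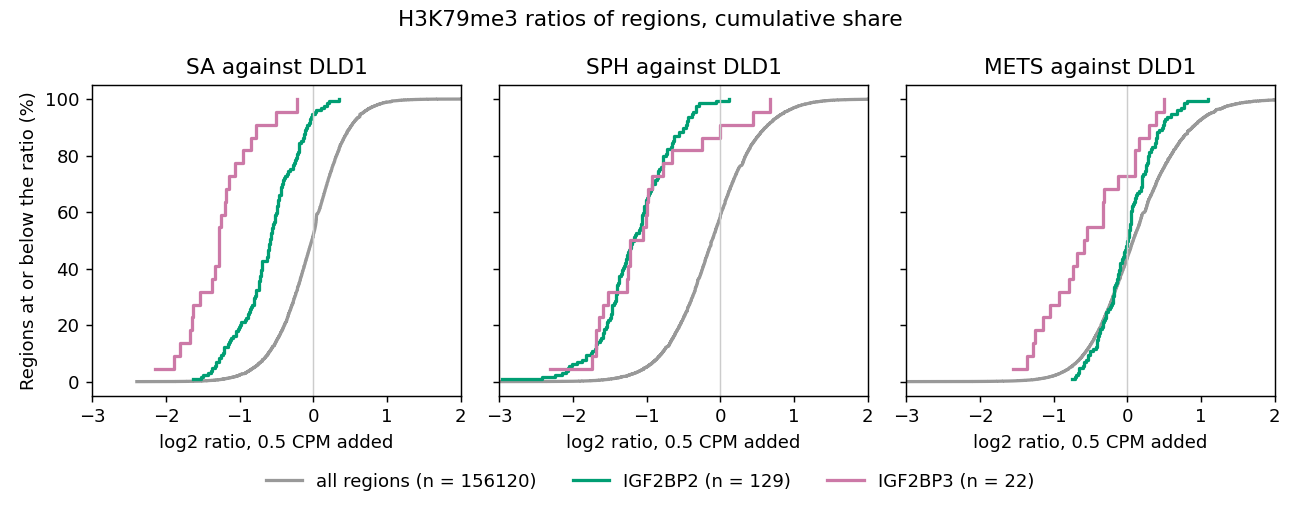
Cumulative share of H3K79me3 regions by log2 ratio to DLD1 (0.5 CPM added) in SA, SPH and METS, for IGF2BP2, IGF2BP3 and all 156120 regions with a count. The IGF2BP2 medians are -0.58, -1.17 and 0.01, and the IGF2BP3 medians -1.28, -1.14 and -0.57, against -0.02, -0.11 and 0.08 for all regions. 1 IGF2BP2 region near -3 in SPH touches the left edge.

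Past 2-fold with 0.5 CPM added, 42 of the 151 regions were lower in SA than in DLD1, 25 of them at IGF2BP2 and 17 at IGF2BP3, where 2.32% of all regions were. In SPH 96 were lower, 83 at IGF2BP2 and 13 at IGF2BP3, against 5.17% of all regions. In METS 6 were lower, all at IGF2BP3, against 2.08%. Higher than DLD1 were 0 in SA (1.09% of all regions), 0 in SPH (3.07%) and 1 in METS (7.22%). That region, chr3:185394124-185394479, lies 149 kb from the IGF2BP2 start and had 4, 1, 3 and 11 counts in DLD1, SA, SPH and METS. Its ratio of METS to DLD1 was 3.22 (0.953 to 13.8), so it did not leave counting error.

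METS was above both SA and SPH by 2-fold at 24 of the 151 regions, 21 of them at IGF2BP2 and 3 at IGF2BP3, against 3.24% of all regions, and below both at 0 (0.709%). The 24 became 14 with TMM factors or DESeq2 size factors, 15 with quantile normalization and 84 without SA. Both mesenchymal lines were below both epithelial lines by 2-fold at 16 regions, 13 at IGF2BP2 and 3 at IGF2BP3, against 0.218% of all regions, and above at 0 (0.00576%). The 16 became 10 with DESeq2 size factors, 8 with quantile normalization, 74 without SA and 32 without METS. Regions of 1 gene share its transcription unit, so the regions counted are not separate observations.

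In SPH and METS the ratio to DLD1 was higher at the start of each gene than over the rest of it, a split made after the values were seen. Within 2 kb of the IGF2BP2 start, 4 regions summed to 47.3 CPM for DLD1, 31.2 for SA, 40.7 for SPH and 71.8 for METS. There METS was 1.52-fold above DLD1 (1.32 to 1.75), SA 1.52-fold below it (1.28 to 1.799) and SPH 1.16-fold below it (0.986 to 1.37). Over the 125 regions farther in, the sums were 668, 433, 261 and 634 CPM, and SPH was 2.56-fold below DLD1 (2.42 to 2.71) and lower at 125 of 125. The interval of SPH at the start reached DLD1 and did not overlap its interval over the rest of the gene.

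At IGF2BP3 the contrast was of the same kind. The 2 regions within 2 kb of the start summed to 11.6 CPM for DLD1, 3.71 for SA, 16.7 for SPH and 15.4 for METS. SPH was 1.44-fold above DLD1 there (1.08 to 1.94), METS 1.33-fold (0.987 to 1.796), and SA 3.12-fold below it (2.003 to 4.99). The 20 regions farther in summed to 79.1, 26.4, 29.5 and 42.1 CPM, and SA was 2.997-fold below DLD1 (2.54 to 3.55), SPH 2.68-fold (2.27 to 3.18) and METS 1.88-fold (1.62 to 2.18). SPH and SA did not differ there beyond counting error (1.12-fold, 0.908 to 1.38). For H3K4me3 inside the gene, SPH was at 0.810-fold of DLD1 (0.594 to 1.10) at chr7:23509225-23509671. It was at 1.14-fold (0.865 to 1.49) at chr7:23507488-23507929. At the 2 H3K4me3 regions before the start SPH was at 1.44-fold and 1.57-fold, and summed over all regions within 3 kb of the start at 1.24-fold (1.08 to 1.41).

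All H3K79me3 regions were split by distance to any H3K4me3 region, which is not the same as distance to a gene start. Pooled as for the genes, SPH was at 1.11-fold of DLD1 within 2 kb of an H3K4me3 region and at 0.949-fold farther away. The median log2 ratio of SPH to DLD1 was 0.02 over the 31973 regions within 2 kb of an H3K4me3 region and -0.14 over the 124147 regions farther away. In SA the medians were -0.06 and -0.01, and in METS 0.08 and 0.08.

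**Figure D5:**
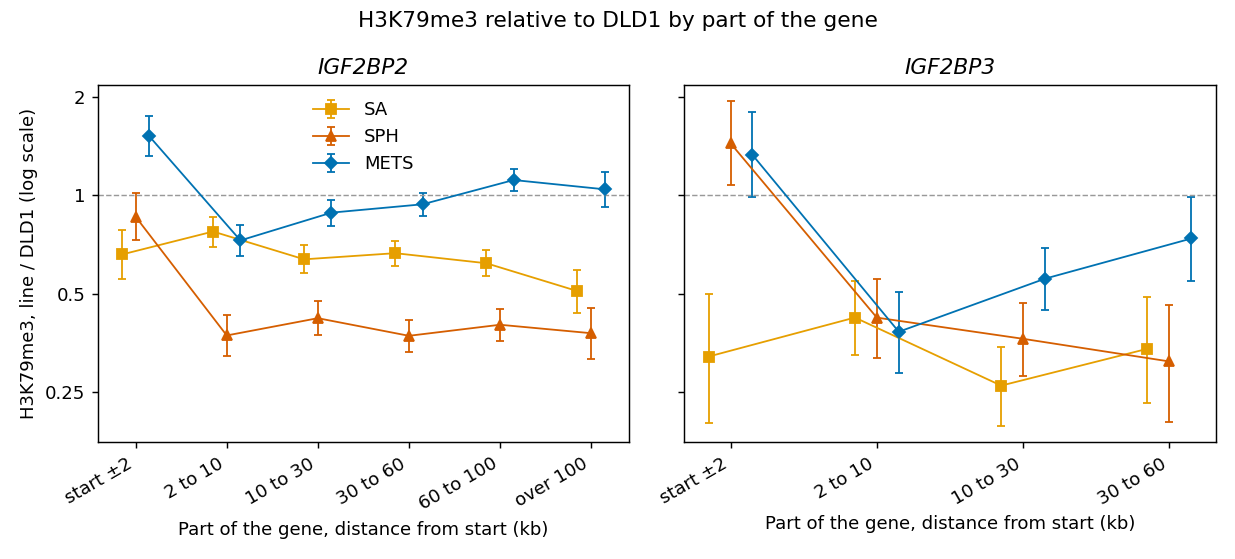
H3K79me3 of SA, SPH and METS relative to DLD1 (log scale) by distance from the start of IGF2BP2 and IGF2BP3, with exact 95% intervals for counting error. SPH is 1.16-fold below DLD1 at the IGF2BP2 start and at least 2.38-fold below it in each farther part. METS is above DLD1 at the IGF2BP2 start and below it from 2 to 10 kb.

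By distance, the H3K79me3 level of IGF2BP2 in DLD1 went from 32.2 CPM per kb at 2 to 10 kb to 20.4 at 10 to 30 kb, 17.3 at 30 to 60 kb, 11.2 at 60 to 100 kb and 7.17 beyond 100 kb. SPH was below DLD1 by 2.69-fold, 2.38-fold, 2.69-fold, 2.49-fold and 2.64-fold in these parts. SA was below it by 1.29-fold, 1.57-fold, 1.503-fold, 1.61-fold and 1.96-fold, with its largest gap in the farthest part. METS was at 0.728-fold of DLD1 from 2 to 10 kb (0.651 to 0.814, 10 regions) and at 0.886-fold, 0.939-fold, 1.11-fold and 1.04-fold beyond.

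Along IGF2BP3, METS was 2.62-fold below DLD1 from 2 to 10 kb (1.98 to 3.49), 1.799-fold from 10 to 30 kb (1.45 to 2.24) and 1.36-fold from 30 to 60 kb (1.01 to 1.83). These parts hold 3, 10 and 7 regions. SA was below DLD1 by 2.37-fold, 3.83-fold and 2.95-fold in the same parts, and SPH by 2.37-fold, 2.75-fold and 3.23-fold. In both genes METS was farthest below DLD1 in the part from 2 to 10 kb.

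The strongest H3K79me3 region of IGF2BP2, chr3:185541142-185541616, lies 1.47 kb inside the gene and had 180 counts for DLD1, 124 for SA, 117 for SPH and 219 for METS (23.9, 17.05, 18.98 and 34.04 CPM). METS was the highest line there. The largest ratio was at chr3:185477203-185477587, 65.4 kb inside, with 35, 23, 1 and 26 counts and a log2 ratio of SPH to DLD1 of -2.96. Next came chr3:185421378-185421801 with 23, 7, 1 and 20 counts (-2.43) and chr3:185486907-185487372 with 37, 20, 4 and 32 counts (-2.24). At these 3 regions SPH was the lowest line. The regions chr3:185441435-185441865 (51, 16, 7 and 35 counts) and chr3:185482099-185482362 (33, 9, 4 and 28 counts) completed the list. SA was also past 2-fold below DLD1 at these and at chr3:185421378-185421801.

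The strongest H3K79me3 region of IGF2BP3, chr7:23508499-23508980, lies 1.35 kb inside the gene and had 70 counts for DLD1, 21 for SA, 79 for SPH and 86 for METS (9.31, 2.89, 12.8 and 13.4 CPM). SA was the single low line there. The largest ratio was at chr7:23490723-23491154, 19.1 kb inside, with 33, 6, 3 and 11 counts and log2 ratios to DLD1 of -1.88 (SA), -2.31 (SPH) and -1.15 (METS). At chr7:23497651-23498070 the counts were 45, 7, 18 and 14, with SA lowest. The regions chr7:23494862-23495159 (31, 6, 6 and 14 counts), chr7:23463623-23464009 (21, 4, 3 and 10) and chr7:23494033-23494456 (28, 6, 5 and 13) were low in both mesenchymal lines and intermediate in METS.

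In regions beyond the 3′ end of IGF2BP3, SA was close to DLD1. These regions lie within another annotated gene body, chr7:23338358-23351348, so they do not describe IGF2BP3 itself. Between 2 and 10 kb beyond that end, 8 regions from 23340074 to 23346437 summed to 41.7 CPM for DLD1, 42.9 for SA, 35.04 for SPH and 47.9 for METS. SA was at 1.03-fold of DLD1 there (0.876 to 1.21), SPH at 0.839-fold (0.702 to 1.001) and METS at 1.15-fold (0.977 to 1.35).

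IGF2BP1 had H3K27me3 at or above percentile 91.6, no listed H3K79me3 and no H3K4me3 region at its start. IGF2BP2 and IGF2BP3 had H3K4me3 at the start, H3K79me3 in the gene and H3K27me3 between percentiles 27.8 and 55.5 of the long intervals. Summed over the whole gene, H3K79me3 was 2.37-fold lower in SPH than in DLD1 at IGF2BP2 and 3.01-fold lower in SA at IGF2BP3. Within 2 kb of the starts, these were 1.16-fold and 3.12-fold, and SPH was 1.44-fold above DLD1 at IGF2BP3. H3K4me3 summed within 3 kb of the 2 starts differed from DLD1 by at most 1.24-fold. A single H3K4me3 region there, chr7:23509225-23509671, was 1.94-fold lower in SA.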

How the data were processed

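The deposited files hold read counts per region for H3K4me3, H3K27me3 and H3K79me3 in 4 lines, with the same regions listed for the 4 lines of a mark, and the authors made them on hg19, per the submitters' processing notes. The unit was judged from the values, which are whole numbers with differing totals. The aligner, the program that called regions, the read counter and any input library are not given in the sources used here. A Diagenode iDeal kit served for precipitation and for making libraries, per the labels' protocols. Each H3K27me3 table ends with a line stating that further rows were skipped, so its totals and CPM refer to the intervals held. Those intervals include whole gene bodies and can overlap each other.

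Here each count was divided by its column total and scaled to CPM. Folds used CPM without an added value, and pooled lines used summed counts over summed totals. Intervals at 95% are of the exact Clopper-Pearson kind, given the summed counts (SciPy 1.17.1, Python 3.11.15). For numbers of regions past 2-fold, 0.5 CPM was added, regions with 0 counts in every line were left out, and a pair of lines had to pass against every line of the other side. The shares of all regions given beside them use the same rule. A floor of 3 counts was used where a line had 0. Duplicate PCR copies could not be recognised, and the intervals do not cover any error that such copies add. The rule for regions past 2-fold was tried on simulated counts with counting error alone and larger changes placed in well-covered regions. That trial does not bear on 2-fold differences or on weakly covered regions. No p-value was computed, because each line has 1 library and the genes were chosen with results known.

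The members and the lists were chosen with earlier results of these data known. Named were the 3 genes, every H3K4me3 region in their windows, the H3K27me3 interval equal to the gene, the H3K79me3 region with the highest mean, and up to 5 H3K79me3 regions per gene with the largest ratio among those past 2-fold with 20 or more counts in a line. The other H3K27me3 intervals, the single H3K79me3 region higher in METS, the split into start and body, the distance parts, the regions just outside the windows and the split of all regions by H3K4me3 nearby were picked with the values in view. The strand of IGF2BP1 was taken from general knowledge. A list of pathway genes and a check of epithelial and mesenchymal markers were planned but need positions on hg19, and no hg19 annotation was used here. Alternatives were TMM factors from edgeR 4.0.16 and size factors from DESeq2 1.42.0 (used for scaling alone), quantile normalization, other added values, fold thresholds and windows, a filter at the median, and leaving out each line.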

Additional observations from a re-analysis of the deposited data

How the results depend on the processing

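No paired analysis was possible because each line has 1 library per mark and each is numbered replicate 1. Of 258 folds recomputed under other settings, 200 stayed within the counting interval, 57 moved outside it and 1 reversed. The cause was not tested except where the setting itself removes lines or regions. Library totals put the median log2 ratio of all H3K79me3 regions in SPH at -0.11 and TMM factors at -0.02.

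Window. Without the 2 kb on either side, the H3K4me3 fold of IGF2BP3 to DLD1 reversed in SPH to 0.988 and was 0.698 in SA, METS over SA and SPH was 1.08, and mesenchymal over epithelial was 0.880. At IGF2BP2, METS over SA and SPH was 1.03. With 10 kb on either side, IGF2BP3 H3K4me3 was 1.004 in SPH and 0.945 for mesenchymal over epithelial. IGF2BP3 H3K79me3 was then 0.551 in SA, 0.614 in SPH, 0.796 in METS and 0.640 for mesenchymal over epithelial. This wider sum takes in regions beyond the 3′ end that lie within another annotated gene body.

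Scaling, with TMM factors, DESeq2 size factors and, where 3 values are given, also quantile normalization. IGF2BP1 H3K27me3 was 1.15 and 1.15 in SA, 1.05, 1.05 and 1.04 in SPH, 0.896 and 0.897 for METS over SA and SPH, and 1.11, 1.11 and 1.08 for mesenchymal over epithelial. IGF2BP3 H3K27me3 was 1.11, 1.11 and 1.13 for mesenchymal over epithelial. IGF2BP2 H3K79me3 was 0.454, 0.461 and 0.470 in SPH, 0.931 and 0.927 in METS, 1.63, 1.62 and 1.74 for METS over SA and SPH, and 0.591, 0.593 and 0.572 for mesenchymal over epithelial. With quantile normalization IGF2BP3 H3K79me3 was 1.20 for METS over SA and SPH and 0.603 for mesenchymal over epithelial.

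Leaving out 1 line at a time, mesenchymal over epithelial ranged from 0.894 to 1.53 for IGF2BP1 H3K4me3, from 0.854 to 1.30 for IGF2BP3 H3K4me3, from 0.934 to 1.15 for IGF2BP3 H3K27me3, from 0.424 to 0.654 for IGF2BP2 H3K79me3 and from 0.399 to 0.652 for IGF2BP3 H3K79me3. METS over the mesenchymal lines ranged from 0.738 to 1.12 for IGF2BP3 H3K4me3, from 0.946 to 1.15 for IGF2BP3 H3K27me3, from 1.52 to 2.34 for IGF2BP2 H3K79me3 and from 1.24 to 1.91 for IGF2BP3 H3K79me3.

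Of 168 numbers of regions past the fold, 38 moved by over 1.5 times. For H3K4me3, a 1.5-fold threshold gave 1 in SA, 3 in SPH, 3 in METS and 2 for METS over SA and SPH, 0.1 CPM added gave 1 in SPH, and a filter at the median gave 0 in METS and 0 for METS over SA and SPH. Without single lines the numbers were 1 to 2 for METS over SA and SPH (2 without SPH) and 0 to 1 for mesenchymal against epithelial (1 without DLD1). For H3K27me3, 0.1 CPM added gave 1 in SPH and 1 in METS.

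For H3K79me3, SA had 42 regions past 2-fold, and 12 with the filter at the median, 84 at 1.5-fold and 1 at 4-fold. SPH had 96, and 46 with the filter and 9 at 4-fold. METS had 7, and 4 with 1 CPM added, 3 with the filter, 28 at 1.5-fold and 0 at 4-fold. METS over SA and SPH had 24, and 14 with TMM, 14 with DESeq2 factors, 15 with quantile normalization, 37 with 0.1 CPM added, 15 with 1 CPM added, 10 with the filter, 77 at 1.5-fold and 0 at 4-fold. Mesenchymal against epithelial had 16, and 10 with DESeq2 factors, 8 with quantile normalization, 26 with 0.1 CPM added, 7 with 1 CPM added, 5 with the filter, 52 at 1.5-fold and 0 at 4-fold. Without single lines these last 2 numbers ranged from 32 to 84 (84 without SA) and from 22 to 74 (74 without SA, 32 without METS).

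Depth limits single regions and intervals of each mark: IGF2BP3 H3K79me3 regions held 3 to 40 counts in SA, and a ratio resting on 1 to 7 counts has a wide interval.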
